A study of Mus musculus with 4 samples.

Results

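The genes described here make, fold and dispatch proteins at the endoplasmic reticulum, and report when that work backs up. They are 39 genes, chosen by name from the 47643 rows of the deposited comparison, and they fall into 12 genes of the translocon and signal peptidase, 15 chaperones and folding enzymes, 6 stress regulators and 6 genes of export and retrieval. They were taken by symbol, and the rule uses no measured value, but the list was chosen with earlier results of these data known. RNA came from periosteum, the membrane on the outside of bone, released by liberase from mouse femoral shafts and sorted by flow cytometry. All the mice were double heterozygotes with 1 Sox9CreErt2 allele, a tamoxifen-activated Cre recombinase made from the Sox9 locus, and 1 TdTomato reporter allele at Rosa26, and all were given 3 tamoxifen injections 48 h apart. Femora were intact and were taken 2 weeks after the last injection. The TdTomato-positive group was sorted for a label that marks cells with Sox9-driven Cre around the time of tamoxifen, and their descendants. The TdTomato-negative group holds whatever other cells the digest released. Each group has 2 libraries, 1 from each of 2 collections that together pooled 9 mice, so no p-value here measures the spread between mice. Neither age nor sex of the mice is stated in the labels.

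Secreted and membrane proteins enter the endoplasmic reticulum through the Sec61 channel, lose their signal peptide to signal peptidase, and are folded by chaperones, lectins and disulfide isomerases before COPII vesicles carry them to the Golgi. When unfolded protein accumulates, the sensors IRE1, PERK and ATF6 switch on the unfolded protein response, in which XBP1, ATF4 and cleaved ATF6 induce chaperones, degradation factors and transport genes. Osteoblasts, chondrocytes and fibroblasts depend on this route for collagen, and plasma cells depend on it for antibody, so both kinds of cell express many of the same genes.

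The deposited table gives group means, not libraries, and the 4 library values of each gene were solved from its columns. Levels below are RPKM, reads per kilobase of genomic span (introns included) and per M reads of depth. Values are listed in the order of the shallower positive library (32.0 M reads), the deeper positive library (41.6 M), the shallower negative library (17.0 M) and the deeper negative library (74.0 M). For 18 of the 39 genes whole read numbers settled which value belongs to which library in both groups. In the rest at least 1 pair of values is open, meaning that it is known but not which library each member of the pair belongs to, and the assignment in which the 2 libraries differ less is printed. Values with 1 library left out use the same assignment. The log2 fold is the authors' difference of mean natural logs, positive minus negative, divided by ln 2. It includes their offset of 0.1 RPKM, which pulls low genes toward 0. Coordinates are those of mm10. Of the 39 genes 14 overlap another annotated gene, 8 of them a protein-coding one: Spcs1 overlaps Glt8d1, Spcs2 Xrra1, Sec11a Nmb, Pdia3 Catsper2, Pdia6 Atp6v1c2, Manf Vprbp and Rbm15b, Ddit3 Mars, and Kdelr3 Ddx17. The strand of counting is not stated, so reads of such neighbours cannot be told apart. In bulk RNA, fewer cells of a type and less RNA per cell cannot be told apart.

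Markers of both kinds of secretory cell, and of leukocytes, also differed between the libraries. The 12 markers of matrix-making skeletal cells all had log2 folds above 0 (median 4.65), and they summed to 4718, 1469, 528 and 2.08 RPKM in the 4 libraries. The positive pair was settled in 2 of the 12, so the split between the positive libraries rests on the printed assignment. Postn, which encodes periostin, a protein named for the labelled tissue, was at 39.8, 10.2, 11.02 and 0.00451 RPKM (positive pair open), the last on 10 reads, so this marker is nearly absent from the deeper negative library. The cartilage proteoglycan gene Acan had 0 reads in the deeper negative library. Of 12 plasma cell markers 10 had log2 folds below 0 (median of all 12, -1.5), with summed levels of 89.95, 136, 306 and 938 RPKM, and 2 of them had 0 reads in the deeper positive library and 1 in the shallower negative library. Most of the last sum came from Igkc (647 RPKM) and Ighm (217 RPKM), while Prdm1 was at most at 0.0673 RPKM in any library. The 2 above 0 were Fkbp11 (1.53) and Sdc1 (1.27), the latter with its groups apart. Igha, which encodes the heavy chain of secretory antibody, had the lowest log2 fold of the 12, -6.32, from levels of 0.174, 0.147, 12.2 and 32.9 RPKM. Neutrophil markers, all 7 of them lower in positive cells, summed to 8453 and 5982 RPKM against 8684 and 19999.8 RPKM. All 5 pan-leukocyte markers were lower too, with sums of 85.7 and 35.6 RPKM against 88.0 and 217 RPKM. In both positive libraries the neutrophil sum was above that of the matrix markers, so the positive group also held neutrophil RNA. The neutrophil and pan-leukocyte sums rest on the printed assignment. The positive pair was settled in 3 neutrophil and 2 pan-leukocyte markers, and the negative pair in 2 of each. In each settled positive pair the deeper library was the higher, as for Cd53 (1.45 and 6.18 RPKM) and Camp (244 and 1722 RPKM). Which positive library held the larger leukocyte sums is thus not known. The part of these marker differences in the values below was not tested.

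Promoter sequence is shown for 5 of the genes because the elements that the unfolded protein response acts through are written in it. The endoplasmic reticulum stress element (ERSE) is CCAAT, 9 free bases and CCACG, the shorter ERSE-II is ATTGG, 1 free base and CCACG, and the core of the unfolded protein response element (UPRE) is TGACGTGG. Both strands were searched in the RefSeq promoters of GRCm38.p6, 250 bases before to 50 after the transcription start, in which 31 of the 39 genes had an entry. Creb3l1, Hyou1, Manf, Sec11c, Kdelr2, Sec61a1, Spcs3 and Ssr2 had none. The sequences below are the 250 bases before the RefSeq start, each 5′ to 3′ on the strand of its gene, with the matched elements in capitals.
Hspa5 (chr2:34771840-34772089, plus strand): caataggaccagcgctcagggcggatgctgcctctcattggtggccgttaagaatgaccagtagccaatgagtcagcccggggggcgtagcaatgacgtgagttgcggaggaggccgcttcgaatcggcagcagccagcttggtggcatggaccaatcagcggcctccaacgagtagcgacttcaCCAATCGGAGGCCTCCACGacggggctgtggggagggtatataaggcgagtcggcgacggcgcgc
Hsp90b1 (chr10:86705445-86705694, minus strand): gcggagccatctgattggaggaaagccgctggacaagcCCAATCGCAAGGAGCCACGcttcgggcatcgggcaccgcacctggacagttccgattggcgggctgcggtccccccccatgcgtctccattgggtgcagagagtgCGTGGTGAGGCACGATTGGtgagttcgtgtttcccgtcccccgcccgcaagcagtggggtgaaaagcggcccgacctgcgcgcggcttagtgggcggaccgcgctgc
Creld2 (chr15:88819396-88819645, plus strand): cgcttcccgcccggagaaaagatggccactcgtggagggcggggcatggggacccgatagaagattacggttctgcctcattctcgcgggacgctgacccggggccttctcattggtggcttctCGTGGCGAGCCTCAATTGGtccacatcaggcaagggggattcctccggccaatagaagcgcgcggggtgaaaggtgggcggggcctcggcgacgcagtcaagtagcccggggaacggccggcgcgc
Herpud1 (chr8:94386179-94386428, plus strand): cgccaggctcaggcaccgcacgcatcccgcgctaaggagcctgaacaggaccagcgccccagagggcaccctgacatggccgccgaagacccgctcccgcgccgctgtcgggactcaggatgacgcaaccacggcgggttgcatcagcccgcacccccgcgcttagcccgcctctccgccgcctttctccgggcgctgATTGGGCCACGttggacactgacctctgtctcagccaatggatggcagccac
Kdelr3 (chr15:79516158-79516407, plus strand): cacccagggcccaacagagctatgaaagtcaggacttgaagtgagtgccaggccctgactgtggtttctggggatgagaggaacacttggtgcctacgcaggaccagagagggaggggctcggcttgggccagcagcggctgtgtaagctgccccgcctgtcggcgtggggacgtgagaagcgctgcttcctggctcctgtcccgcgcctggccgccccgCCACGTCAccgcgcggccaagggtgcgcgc

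In these windows Hspa5 carries its ERSE at positions -65 to -47 from the start. Hsp90b1 carries a copy on each strand, at -212 to -194 and, reversed, at -107 to -89, and Creld2 a reversed copy at -126 to -108. Herpud1 holds an ERSE-II at -52 to -42. Kdelr3 holds the UPRE core reversed, at -30 to -23. Counting all 31 promoters, an ERSE was found in 7 genes (22.6%), which are Hspa5, Hsp90b1, Calr, Canx, Pdia6, Dnajc3 and Creld2, against 0.119% of all 32851 promoters of the same length. ERSE-II was found in Herpud1 and Dnajb11 (6.45% against 0.0365%), and the UPRE core in Sec24d, Sec23a and Kdelr3 (9.68% against 0.676%). ERSE was thus found in chaperone genes alone among the members with an entry, and the UPRE core in export genes alone. Genes with an element had folds on either side of 0: the log2 folds of the 7 ERSE holders ran from -0.65 for Canx to 1.01 for Creld2, with a median of 0.23. The ERSE-II holders were at 0.13 and 0.16, and the 3 UPRE-core holders ran from 0.15 to 2.80. The elements were chosen from textbook knowledge of ATF6 and XBP1 sites, and members may be among the genes that defined them. The higher shares are thus no independent result about these genes. A match is a description of the letters and no measure of binding.

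Most of the 39 genes had somewhat higher values in TdTomato-positive cells, and none passed the test. All 39 had at least 10 reads in 2 or more libraries. The log2 fold was above 0 in 29 genes and below 0 in 10, with a median of 0.43 and a range from -1.09 for Hyou1 to 2.80 for Kdelr3. Over the 17176 genes with as many reads the median was 0.02 and 51.0% were higher, and over the 6739 genes whose mean reached 1 RPKM the median was 0.09 and 53.5% were higher. In the authors' deposited table none of the 39 genes (0) were under an FDR of 0.05, where 0.0063% of all genes were (3 of 47643), and 0 were under an unadjusted p of 0.05, where 0.894% of all genes were. The lowest p among them was 0.0502 in the authors' deposited table, for Kdelr3. Differences were small for most: 31 of the 39 lay within 1 log2 unit of 0, 7 (17.9%) were above 1, where 13.6% of genes with reads were, and 1 was below -1, where 12.2% were. Among genes whose mean reached 1 RPKM, 17.6% of the members and 19.3% of all genes were above 1.

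**Figure D1:**
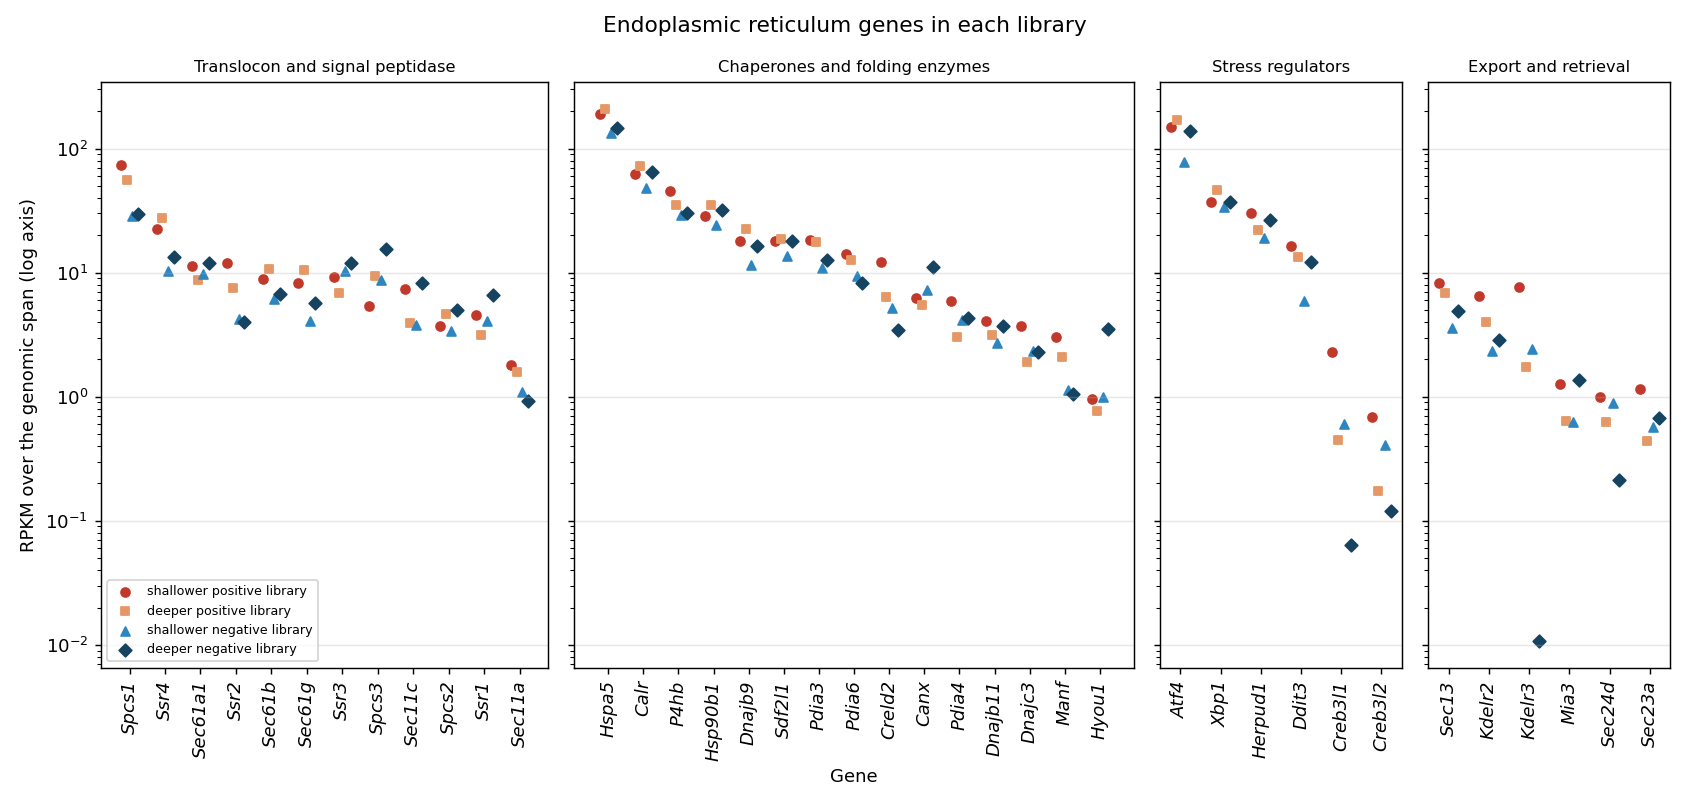
Level of each of the 39 genes in each of the 4 libraries, in RPKM over the genomic span on a log axis, by role and in order of mean level. Most symbols of a gene lie close together, with open pairs drawn in the assignment whose libraries differ less. Creb3l1, Creb3l2, Kdelr3 and Sec24d spread downward in the deeper negative library, and Hyou1 upward.

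Summed over the 39 genes, levels came to 864, 862, 547 and 703 RPKM in the 4 libraries. These sums rest on the printed assignment. The positive pair is open in 21 of the 39 genes, among them Hspa5, Spcs1 and P4hb, and the negative pair in 15, among them Hspa5, Calr and Spcs1. Open negative values can lie far apart, as for Hspa5 at 33.4 and 579 RPKM under the other assignment. With the same assignment the shallower negative library was the lowest of the 4 in 21 genes (53.8%), against 26.7% of genes with reads, and the shallower positive library was the highest in 20 (51.3%), against 35.9%. Among the 18 genes settled in both groups, the shallower negative library was the lowest in 5 (27.8%, against 22.5% of settled genes) and the shallower positive library the highest in 11 (61.1%, against 35.1%). The positive values were both above the negative values in 19 genes with the assignment printed, where 22.6% of genes with reads did. Among genes whose mean reached 1 RPKM it was 19 of 34 members and 1955 of 6739 genes. The printed assignment favours groups that lie apart, and open positive pairs were more frequent among the 39 genes (53.8%) than among genes with reads (25.8%). Under every possible assignment the positive values were both above the negative values in 9 genes, Ssr4, Sec11a, Creld2, Sdf2l1, Manf, Dnajb9, Atf4, Sec13 and Kdelr2, where 15.8% of genes did. The positive values were both below the negative values under every possible assignment in 2 genes, Ssr3 and Hyou1, where 13.5% of genes did. With the printed assignment it was 3 genes, where 18.9% of genes did. In the authors' deposited table the ratio of positive to negative group means was above 1 in 21 of the 39 genes and in 35.9% of genes with reads. That ratio is 0.764 for a gene with no reads at all, since those means are divided by depth a second time, so the log difference is the measure used here.

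**Figure D2:**
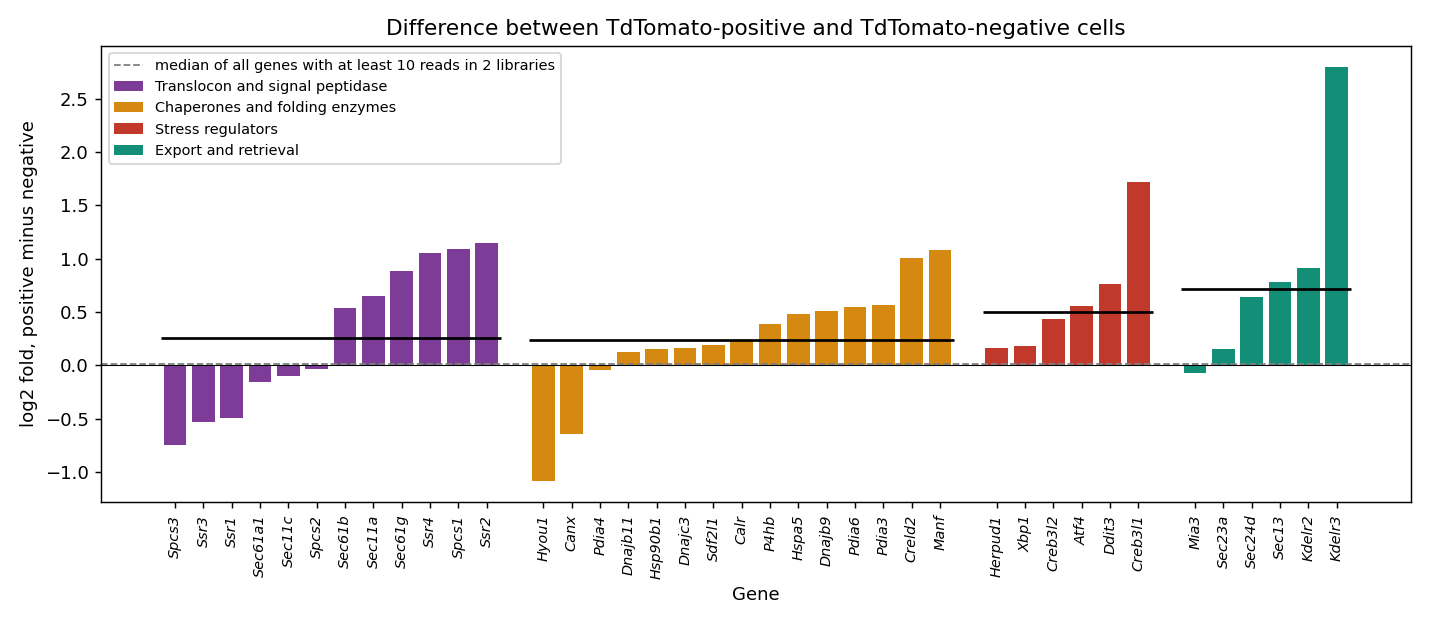
Log2 fold (positive minus negative) of each of the 39 genes as bars from 0, by role, with a black line at the median of each role and a dashed line at the median of all 17176 genes with reads. Stress regulators are all above 0, translocon genes are split 6 to 6, and Kdelr3 at 2.80 stands beyond the rest.

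Translocon and signal peptidase genes were split, with 6 higher and 6 lower in positive cells and a median log2 fold of 0.25. The median was -0.51 over the 4 settled genes, 0.13 without the shallower negative library and 0.54 without the deeper one. Spcs1, a small subunit of signal peptidase, had the highest level of the group at 74.2, 55.9, 28.8 and 30.0 RPKM (open in both groups), with a log2 fold of 1.09. Spcs1 lies on chromosome 14 (30999826 to 31001672). Ssr2, a subunit of the translocon-associated protein (TRAP) complex beside the channel, had the highest fold of the group, 1.15, from 11.9 and 7.54 RPKM against 4.21 and 4.0 RPKM (open in both groups). Ssr4, the delta subunit of the same complex, was at 22.7 and 27.8 RPKM against 10.3 and 13.3 RPKM, with a log2 fold of 1.06 and the groups apart under either assignment.

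Other members of these complexes had values on either side of 0. Ssr3, the gamma subunit of TRAP, was at 9.17 and 6.85 RPKM in positive cells and at 10.4 and 11.99 RPKM in negative cells, a log2 fold of -0.53 with no overlap of the groups. Ssr1, the alpha subunit, was at 4.53, 3.14, 4.08 and 6.65 RPKM, a log2 fold of -0.50 with overlap. TRAP is thus a complex whose 4 genes had log2 folds of 1.15, 1.06, -0.50 and -0.53. Signal peptidase divided in the same manner. Spcs3, its glycosylated subunit, had the lowest fold of the group, -0.74, from 5.36, 9.38, 8.78 and 15.4 RPKM. The catalytic subunit Sec11a was at 1.80 and 1.60 RPKM against 1.10 and 0.931 RPKM, a log2 fold of 0.65 with the groups apart, while the alternative catalytic subunit Sec11c (-0.10) and Spcs2 (-0.03) lay near 0. Of the channel itself, the pore subunit Sec61a1 was at 11.4, 8.71, 9.76 and 11.9 RPKM with a log2 fold of -0.15, and the small subunits Sec61b and Sec61g were at 0.54 and 0.89 (all open in both groups). None of these members was under an unadjusted p of 0.05 in the authors' deposited table, and the lowest p of the 12 was 0.427.

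Chaperones and folding enzymes leaned toward positive cells, with 12 of 15 higher and a median log2 fold of 0.23. The median was 0.46 without the deeper positive or the deeper negative library, and 0.13 with libraries scaled by their median ratio. Hspa5 encodes BiP, the Hsp70 chaperone that binds unfolded chains and holds the stress sensors inactive. It had the highest level of the 39 genes over genomic span, at 191 and 209 RPKM in positive cells and 133 and 146 RPKM in negative cells, a log2 fold of 0.48. Its pairs are open, and under either assignment the positive values stay within 160 to 249 RPKM and the negative values within 33.4 to 579 RPKM. Hspa5 lies on chromosome 2 (34771970 to 34777547, mm10). Hsp90b1, the lumenal Hsp90, was at 28.5, 35.4, 24.1 and 31.9 RPKM (open in both groups), a log2 fold of 0.16 with overlap. Calr, the soluble lectin chaperone calreticulin, was at 62.7, 72.7, 48.1 and 64.7 RPKM (open in both groups), a log2 fold of 0.23 with overlap. Canx, its membrane-bound partner in the glycoprotein folding cycle, was at 6.27 and 5.50 RPKM against 7.29 and 11.1 RPKM (open in both groups), a log2 fold of -0.65.

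Disulfide isomerases had log2 folds between -0.05 and 0.57. P4hb, an isomerase that is also a subunit of the collagen prolyl 4-hydroxylase, was at 45.3 and 35.0 RPKM against 28.95 and 30.3 RPKM, a log2 fold of 0.39. Its positive pair is open over 26.9 to 59.0 RPKM, so the groups can overlap. Pdia3, the isomerase that works with the lectins, and Pdia6 had log2 folds of 0.57 and 0.55 (open in both groups), and Pdia4 was at 5.89, 3.03, 4.17 and 4.34 RPKM with a log2 fold of -0.05.

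The highest folds of the chaperone group were those of Manf and Creld2, small stress-induced proteins of the lumen. Manf, which binds BiP and can be secreted, was at 3.01 and 2.09 RPKM against 1.14 and 1.06 RPKM, with a log2 fold of 1.08 and no overlap over the open positive range of 1.58 to 3.95 RPKM. Creld2, a stress-induced protein with isomerase activity, was at 12.3 and 6.34 RPKM against 5.17 and 3.45 RPKM, a log2 fold of 1.01 with no overlap. Sdf2l1, a partner of the co-chaperone Dnajb11, was at 18.2 and 18.7 RPKM against 13.7 and 18.0 RPKM. The Sdf2l1 groups are apart by less than the 2 negative libraries are from each other, with a log2 fold of 0.19.

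Partners of BiP did not follow a single direction. Dnajb9, a co-chaperone that recruits BiP to misfolded protein and to the sensor IRE1, was at 17.9 and 22.3 RPKM against 11.5 and 16.3 RPKM, a log2 fold of 0.51 with the groups apart. Dnajb11 and Dnajc3, which pass clients to BiP, were at 0.13 and 0.16, both with overlap. Hyou1, the nucleotide exchange factor of BiP, had the lowest fold of all 39 genes, -1.09. It was at 0.967 and 0.771 RPKM in positive cells and at 0.993 and 3.53 RPKM in negative cells, on 398, 413, 217 and 3369 reads. The 2 positive and the shallower negative library were alike, and the deeper negative library stood apart. Without that library the log2 fold of Hyou1 was -0.18.

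The 6 stress regulators had log2 folds above 0 with all libraries, with a median of 0.50 that was 0.23 without the shallower negative library. Leaving out 1 library turned the sign of Herpud1 and Creb3l2, and 1 of the 6, Atf4, had its groups apart under every possible assignment. Atf4, the transcription factor translated when PERK slows protein synthesis, was at 149 and 169 RPKM against 78.6 and 140 RPKM on 11243, 16571, 3144 and 24351 reads. Its log2 fold was 0.56, and 0.19 without the shallower negative library. Atf4 lies on chromosome 15 (80255184 to 80257540). Ddit3, the ATF4 target CHOP that promotes cell death under lasting stress, was at 16.4 and 13.5 RPKM against 5.89 and 12.3 RPKM, with a log2 fold of 0.76. Its positive pair is open over 10.3 to 21.4 RPKM, so the groups can overlap, and the fold was 0.28 without the shallower negative library. Xbp1, the factor spliced by IRE1, was at 37.1 and 46.2 RPKM against 33.9 and 36.9 RPKM, a log2 fold of 0.19. The positive pair of Xbp1 is open over 35.4 to 48.3 RPKM, so its groups can overlap. These gene-level values do not separate spliced from unspliced Xbp1. Herpud1, a stress-induced membrane protein of the degradation machinery, was at 30.4, 22.0, 19.0 and 26.6 RPKM (open in both groups), a log2 fold of 0.16. It was -0.03 without the shallower positive library and -0.04 without the shallower negative one.

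Creb3l1 and Creb3l2 are membrane-bound relatives of ATF6 known for collagen secretion in bone and for matrix secretion in cartilage. Creb3l1 was at 2.29 and 0.450 RPKM in positive cells and at 0.599 and 0.0644 RPKM in negative cells, on 3085, 789, 429 and 201 reads. The groups overlapped, since the shallower negative library lay above the deeper positive one, and each group spanned more than the gap between their means on the log scale. Its log2 fold was 1.72, and 0.71 without the deeper negative library. In the authors' deposited table the ratio was 2.03 and the p of the lognormal model 0.227. Creb3l2 was at 0.688, 0.173, 0.409 and 0.119 RPKM, in the same order of libraries, with a log2 fold of 0.43. It was -0.14 without the deeper negative library and -0.29 without the shallower positive one.

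Export and retrieval genes had a median log2 fold of 0.71, with 5 of 6 above 0, and a median of 0.50 without the shallower positive library. Kdelr3 encodes a receptor that returns escaped chaperones from the Golgi. It was at 7.72 and 1.75 RPKM in positive cells and at 2.44 and 0.0107 RPKM in negative cells, on 2795, 823, 469 and 9 reads. The shallower negative library lay above the deeper positive one, so the groups overlapped. Kdelr3 had the highest log2 fold of the 39 genes, 2.80, with a ratio of 1.91 in the authors' deposited table, and its log2 fold was 0.58 without the deeper negative library. Kdelr3 lies on chromosome 15 (79516408 to 79527739).

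Kdelr2, a second receptor of this kind, was at 6.49 and 3.98 RPKM against 2.33 and 2.87 RPKM, a log2 fold of 0.91 with no overlap. Sec13, a subunit of the outer COPII coat, was at 8.32 and 6.83 RPKM against 3.59 and 4.95 RPKM, a log2 fold of 0.78 with no overlap. These are the 2 export genes whose groups were apart, and their log2 folds stayed between 0.60 and 1.30 when any 1 library was left out. Sec24d, a cargo-binding subunit of the inner coat, was at 0.995 and 0.625 RPKM against 0.886 and 0.212 RPKM, a log2 fold of 0.64 and of -0.15 without the deeper negative library. Its coat partner Sec23a was at 1.15, 0.441, 0.570 and 0.670 RPKM, a log2 fold of 0.15. Mia3 encodes TANGO1, which loads bulky collagen into COPII carriers, and was at 1.27, 0.643, 0.629 and 1.37 RPKM, a log2 fold of -0.08. The positive and negative values of Sec23a and Mia3 overlapped.

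**Figure D3:**
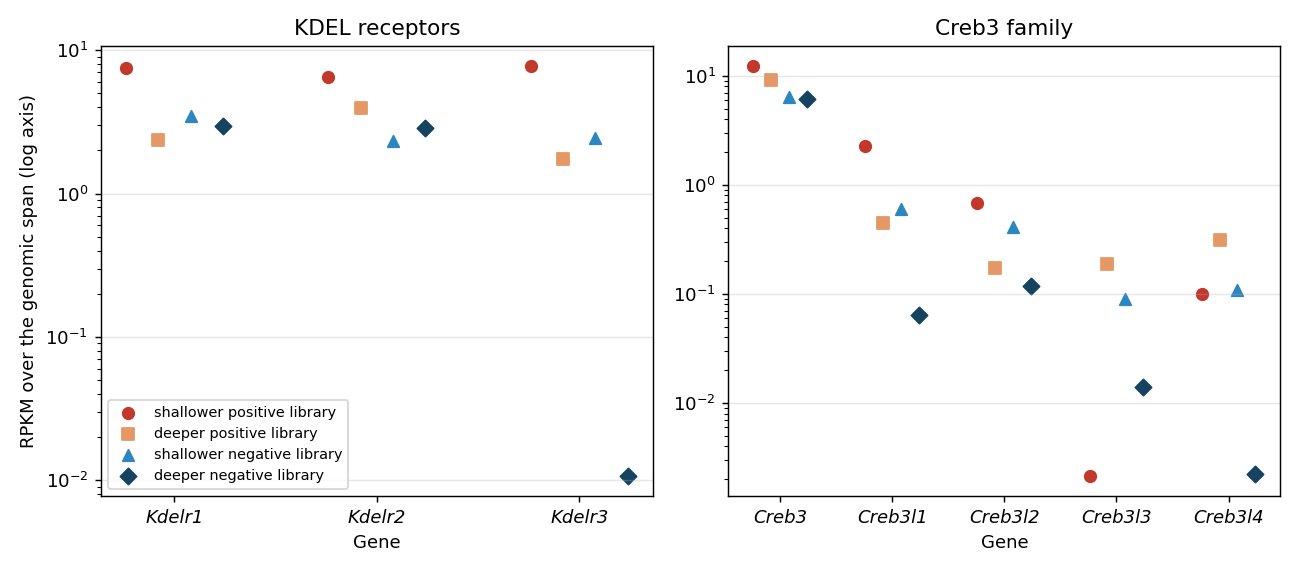
Levels of the 3 KDEL receptor genes (left) and the 5 Creb3 family genes (right) in each library, in RPKM over the genomic span on a log axis. Kdelr1 and Kdelr2 lie between 2.33 and 7.55 RPKM in all 4 libraries, whereas Kdelr3 is at 0.0107 RPKM in the deeper negative library, and Creb3l1 and Creb3l2 are also lowest there.

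Of the other KDEL receptor, Kdelr1, which is not among the 39 genes, levels were 7.55, 2.36, 3.47 and 2.97 RPKM, with a log2 fold of 0.35. In the deeper negative library Kdelr1 had 2395 reads and Kdelr2 had 3831, where Kdelr3 had 9. Within the Creb3 family, Creb3 was at 12.2, 9.21, 6.43 and 6.06 RPKM (open in both groups) with a log2 fold of 0.71. Creb3l3 and Creb3l4 had at most 115 reads in any library.

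**Figure D4:**
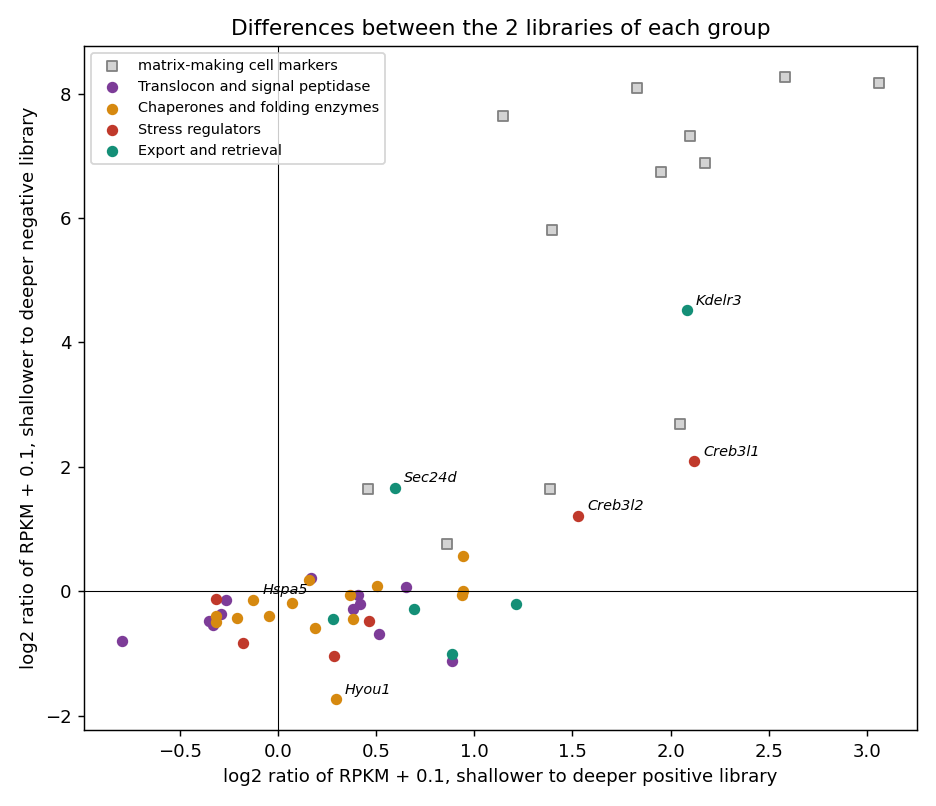
For each of the 39 genes (circles, coloured by role) and 12 matrix-making cell markers (grey squares), the log2 ratio of RPKM + 0.1 of the shallower to the deeper positive library against the same ratio for the negative libraries. Open pairs are drawn in the assignment with the smaller ratio; Kdelr3, Creb3l1, Creb3l2 and Sec24d lie toward the markers, with negative ratios from 1.22 to 4.52.

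How far the 2 libraries of a group differed can be read from settled pairs alone, since an open pair is printed in the assignment with the smaller ratio, and open positive pairs were more frequent among the 39 genes (53.8%) than among genes with reads (25.8%). The median absolute log2 ratio of settled pairs was 0.74 between the 2 positive libraries (18 genes) and 0.48 between the 2 negative libraries (24 genes), against 0.65 and 0.62 over all settled genes. With open pairs included, 4 of the 39 genes (10.3%) had a log2 ratio of the shallower to the deeper negative library above 1, as had 13.6% of genes with reads. Another 4 had one below -1, as had 18.2%. The negative pair was open in 38.5% of the 39 genes and in 21.4% of genes with reads, which lowers the shares of the 39 genes more, so they cannot be compared directly. Those above 1 were Kdelr3 at 4.52, Creb3l1 at 2.09, Sec24d at 1.66 and Creb3l2 at 1.22, and their ratios between the positive libraries were 2.08, 2.12, 0.59 and 1.53. With the assignment printed, all 12 matrix markers were likewise highest in the shallower positive and lowest in the deeper negative library. Col1a1, the main collagen of bone, was at 1290 and 154 RPKM against 189 and 0.557 RPKM, with the positive pair open. Those below -1 were Hyou1 at -1.73, Sec11c at -1.11 (open), Ddit3 at -1.04 and Mia3 at -1.01. The plasma cell sum, mostly Igkc and Ighm, was likewise higher in the deeper negative library, as were the leukocyte sums with the assignment printed. The part of cell mix in these ratios was not tested.

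Measured per length of exon instead of genomic span, which allows levels to be compared between genes, Hspa5 remained the highest. Its mean was 264 RPKM of exon in positive cells and 184 in negative cells. In the order of the positive means, P4hb followed at 182 and 134, Atf4 at 159 and 109, Pdia3 at 143 and 93.6, Hsp90b1 at 121 and 106, Calr at 120 and 99.6 and Herpud1 at 100.4 and 87.3. In negative cells Hsp90b1 and Calr lay above Pdia3. Calr and Hsp90b1, neighbours in that order, differed by less than their libraries did. Hyou1 was the lowest, at 1.55 and 4.03. Kdelr3, at 38.0 RPKM of exon in positive cells, was below Kdelr2 at 51.7, and in negative cells they were at 9.83 and 25.7. In the authors' deposited table the group means times genomic span, in bases, gave 5508 and 4900 for Hspa5, 4370 and 3261 for Atf4, 145 and 75.5 for Kdelr3, and 27.2 and 56.7 for Hyou1.

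A second test, limma on log2(RPKM + 1), called 0 genes among the 34 members that passed its filter of 1 RPKM in 2 libraries, and 0% of the 6861 genes tested. On simulated data this fit recovered 0 of 200 genes changed 4-fold when the SD of the natural logs between libraries was 0.5. It recovered 133 of 200 genes changed 16-fold at that SD, and 192 of 200 changed 4-fold at an SD of 0.1. The 0 called thus does not show that differences of the size seen here are absent. At an unadjusted p under 0.05 it had 3 members, all higher, where 7.08% of all genes tested were higher with such a p. These were Spcs1 (difference 1.11 ± 0.343 SE), Ssr4 (1.04 ± 0.347) and Ssr2 (1.04 ± 0.371), each with an adjusted p of 0.453 in limma. With a pseudocount of 0.1 none of the 34 members (0) had such a p, and on settled genes without a block for library pairs none of 13 (0) did. With the shallower positive and shallower negative library paired as a block, 2 of the 13 had such a p in limma, Kdelr3 and Creld2. With the other pairing 0 did. Without the filter 11 of the 39 genes, all higher, had an unadjusted p under 0.05, where 4.83% of all genes tested were higher with such a p, and 0 passed after adjustment in limma. These 11 were Spcs1, Ssr2, Ssr4, Sec61b, Sec61g, Sec11a, Hspa5, Pdia3, Pdia6, Manf and Sec13. For open pairs limma took the assignment that differs less, which lowers such a p.

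The wider pathway was more evenly split, a difference from the 39 genes that was not tested. Of 115 other genes of secretion and the stress response, all with at least 10 reads in 2 libraries, 63 were higher and 52 lower, with a median log2 fold of 0.13, and 0 were under an FDR of 0.05 or an unadjusted p of 0.05 in the authors' deposited table. Targeting, translocation and glycosylation genes were higher in 18 of 25, with a median of 0.24. Krtcap2 and Dad1, both subunits of the oligosaccharyltransferase, had the highest folds, 1.12 and 1.11, and Tram1, a translocation protein, and Stt3a, a catalytic subunit of the same transferase, the lowest, -0.87 and -0.64. Other folding enzymes were higher in 15 of 22, with a median of 0.35. Cnpy2 (1.66) and Fkbp11 (1.53), a prolyl isomerase also counted among the plasma cell markers, were the highest. Fkbp11 was at 5.08 and 0.848 RPKM against 1.25 and 0.311 RPKM. Ero1l, the oxidase that recharges disulfide isomerases, was the lowest at -1.47, from 0.629 and 2.62 RPKM against 2.19 and 6.18 RPKM, followed by Txndc11 at -0.80.

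Genes that dispose of misfolded protein, sense stress or carry cargo had medians whose sign rested on single libraries. Degradation genes were higher in 7 of 18, with a median of -0.22, which was 0.09 without the deeper positive library and 0.16 without the deeper negative one. Edem1, which marks misfolded glycoproteins, and Derl3 were the lowest, both at -1.16, and the lectin Erlec1 (1.21) and Vimp (1.20) the highest. Derl3, also a plasma cell marker, had 11 and 0 reads in positive cells and 1 and 150 in negative cells. Sensors and their targets were higher in 9 of 20, with a median of -0.16, which was 0.12 without the shallower positive library, 0.40 without the deeper negative one and 0.02 on settled genes. Eif2ak3, which encodes PERK, was at -1.07 and Ppp1r15b, a regulatory subunit of the phosphatase that reverses PERK signalling, at -1.05, while Atf3 (0.96) and Creb3l4 (0.93) were the highest. COPII and COPI genes were higher in 14 of 30, with a median of -0.06, which was 0.08 without the deeper positive library, 0.23 without the deeper negative one and 0.16 on settled genes. Their folds ran from the coat subunit Sec24c at -1.26 and Ctage5 at -0.87 to the cargo receptor proteins Mcfd2 at 1.32 and Ergic3 at 1.5.

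**Figure D5:**
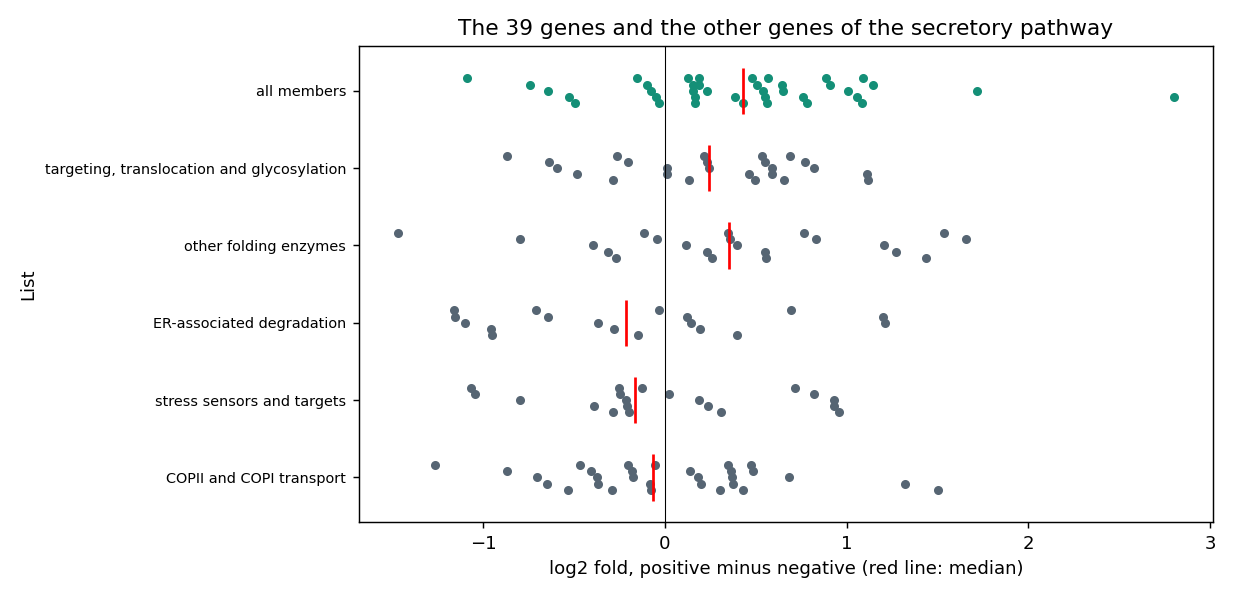
Log2 fold (positive minus negative) of each gene, as points, for the 39 genes and 5 lists of other secretory pathway genes, with a red line at the median of each list. The median of the 39 genes is at 0.43, and those of degradation, sensor and COPII and COPI genes, at -0.22, -0.16 and -0.06 with all libraries, turn above 0 without the deeper negative library.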

How the data were processed

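Per the labels' protocols, total RNA of about 10000 sorted cells per population was made into SMARTer low-input libraries and read as paired ends of 75 nucleotides. STAR, Partek and the build mm10 are named, with no versions, per the submitters' processing notes. The authors' deposited table of 47643 genes holds, per the file headers, group means of a normalized signal, a highest value and a sum (scores on the scale of that signal), a natural log difference, a ratio, a p-value, an FDR and the Akaike criterion of a lognormal model with shrinkage. It has no column per library.

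The columns for the 2 group means, the maximum and the log difference have exactly 1 solution in 4 library values for each of the 47643 genes. Those values were RPKM plus 0.1, divided once more by depth and span, which was inferred from the values and is stated in no header. The Akaike criterion minus 2 times the summed natural logs of the solved values lay between 24.5 and 25.8 in every gene. Values were assigned to libraries by whole reads (within 0.01 reads plus 1e-05 per read, at most 0.05, or within 0.002 where 1 value was whole). Of 17176 genes with at least 10 reads in 2 libraries, 70.3% were settled in both groups. In the settled negative pairs 97.3%, and in the settled positive pairs 70.5%, had the assignment that differs less. Genes held 85.3% and 65.9% of the reads of the positive libraries and 70.2% and 84.5% of those of the negative ones, in order of depth. No value carries a collection number.

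The main test is the authors' deposited p and FDR over all genes, two-sided at 0.05. Alternatives were limma 3.58.1 in R 4.3.3 on log2(RPKM + 1) for genes of at least 1 RPKM in 2 libraries, with a pseudocount of 0.1, with no filter, with library pairs as a block, and with each library left out. The scripts were tested on simulated data. Python 3.11.15, pandas 2.3.3, NumPy 2.4.6 and matplotlib 3.10.9 were used. Exon lengths are the union of GENCODE M21 exons, whose gene start and end matched the table in 32 of 39 genes. The members and lists were chosen with earlier results of these data known. All 39 genes are named, with library values in full for the highest level, the highest fold and the lowest fold of each role and for a set list of members. Other pathway genes are the 2 with the highest and the 2 with the lowest fold of each list. A planned comparison of protein ends was not run.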

Additional observations from a re-analysis of the deposited data

How the results depend on the processing

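With 2 libraries per group and many open pairs, no value here has more than a weak check on its error. The 3 genes called over the whole table became 426 at an unadjusted p under 0.05 in the authors' deposited table. Limma called 0 genes with a pseudocount of 1 or 0.1, without a filter, on settled genes with no block, and in the range from 0 to 0 when 1 library was left out. The library pairs are not known, so both possible pairings were run as a replicate block in limma on 3621 settled genes. Pairing the shallower positive with the shallower negative library called 47 genes (1.3%), with 600 higher and 419 lower at an unadjusted p under 0.05. The other pairing called 0, with 88 genes at an unadjusted p under 0.05. No member was called in any of these fits (0 in each), which tested 39 members without a filter, 34 with it and 13 on settled genes. Under the first pairing the adjusted p in limma was 0.0664 for Kdelr3 and 0.124 for Creld2, and under the other 0.949 for both, so the pairing moves these values and the cause was not tested.

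The median of the 39 genes stayed between 0.28 and 0.51 when 1 library was left out, and was 0.34 with libraries scaled by their median ratio, against 0.43. Values with 1 library left out use the printed assignment, and the positive pair is open in 21 members and the negative pair in 15. For an open pair, leaving 1 library out moves the fold less under that assignment than under the other. The narrow ranges are thus partly set by that choice. The number of members above 0 ran from 25 to 33 when 1 library was left out, and was 21 by the authors' deposited ratio. Medians by role ran from 0.13 to 0.54 for the translocon, from 0.21 to 0.46 for chaperones, from 0.23 to 0.73 for stress regulators and from 0.50 to 0.97 for export genes when 1 library was left out. With libraries scaled by their median ratio they were 0.15, 0.13, 0.40 and 0.61 in the same order. On settled genes alone the translocon median was -0.51, from 4 genes. Other folding enzymes had a median of 0.15 with a pseudocount of 1. Leaving out 1 library gave medians of -0.45 to 0.16 for degradation genes, -0.35 to 0.40 for sensors and -0.14 to 0.23 for COPII and COPI genes, so their signs rest on single libraries. Genes with the positive values both above the negative values went from 19 to 9 with the other assignment. Of 121 alternatives run, 102 stayed within the spread between libraries or within 1.5 times the count, and 9 turned the sign of a median. An alternative that also called 0 members is counted as unchanged, as is the fall from 29 to 21 members above 0. The spread itself uses the printed assignment, so this tally is a weak check.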
